A study of Mus musculus with 21 samples.

Results

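The genes described here are the Wnt ligands, their receptors and the secreted or intracellular antagonists that limit them, followed in cultured mouse mammary fibroblasts. They are the 48 rows of the 45706 in the gene table named as a Wnt, a Frizzled (Fzd), an Sfrp from 1 to 5, a Dickkopf (Dkk) from 1 to 4 or an R-spondin (Rspo) from 1 to 4, together with Lrp5, Lrp6, Wif1, Axin2, Nkd1, Nkd2 and Notum. By role they are 19 Wnt ligands, 10 Frizzled receptors, 2 LRP co-receptors, 4 R-spondins, 5 Wnt-binding antagonists, 4 Dickkopfs, 3 intracellular feedback inhibitors and the feedback enzyme Notum. The rule uses gene names and no value, but it was set with earlier results of these data known.

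RNA was sequenced from 2 fibroblast lines: NF1 (NF), from normal mammary glands of FVB/n mice, and CAF1 (CAF), from MMTV-PyMT mammary carcinoma, a model in which the mouse mammary tumour virus promoter drives the polyoma middle T oncogene in mammary epithelium. Every culture was transfected with siRNA at 100 nM, so the controls carry a control siRNA. The 7 groups of 3 libraries were NF with control siRNA and vehicle (NF vehicle), NF with control siRNA and TGFb1 at 5 ng/mL (NF TGFb1), NF with TGFb1 and an siRNA pool against Hsp90aa1 or Hsp90ab1 (NF siHsp90aa1, NF siHsp90ab1), CAF with control siRNA and vehicle (CAF control), and CAF with vehicle and the pool against Hsp90aa1 or Hsp90ab1. TGFb1 was added 5 h after transfection and RNA was taken at 48 h. Every group, vehicle included, is listed with 10% serum and 60% confluence. No NF library combines a knockdown with vehicle and no CAF library received TGFb1. Each line is 1 numbered line, so a difference between NF and CAF is a difference between these 2 lines, and donor age was not used here. The labels do not say that replicates came from separate cultures, so each p-value measures only the spread between these libraries.

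Library totals ran from 35087180 to 70421576 counts. Hsp90aa1 fell from 543 to 671 CPM (counts relative to the library total, scaled by TMM factors) in NF TGFb1 to 40.2 to 120.4 in NF siHsp90aa1, and from 726 to 995 in CAF control to 58.1 to 122 in CAF siHsp90aa1. Hsp90ab1 fell from 3119.8 to 3782 CPM to 327 to 623 in NF siHsp90ab1, and from 2369.8 to 2536 to 166 to 315 in CAF siHsp90ab1. Hsp90aa1 itself stood at 253 to 327 CPM in NF siHsp90ab1 and at 324 to 479 in CAF siHsp90ab1, with edgeR adjusted p of 0.0722 and 0.123. The 9 fibroblast markers summed to 7785 CPM or more in every library, but not each of them was high. In that list Thy1 had means of 0.285 CPM in NF vehicle and 190 in CAF control, and Fap 0.104 and 0.744. The defining epithelial markers Epcam and Cdh1 had highest group means of 0.104 and 0.127 CPM, both in NF TGFb1, and means of 0.0803 and 0.0194 in CAF control. Krt19, another epithelial marker, had means of 0.216 CPM in NF vehicle and 13.5, 12.7 and 7.71 in the CAF groups. Mitochondrial counts made up 1.67 to 4.3% of a library, with 2.19 to 4.3% in NF vehicle, where replicate 1 was highest, and 1.695 to 1.871% in CAF control. In these bulk libraries fewer cells of a type and less RNA per cell cannot be told apart.

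Wnt proteins are secreted, lipid-modified ligands that bind a Frizzled receptor. With the co-receptors Lrp5 or Lrp6 they stabilise beta-catenin, which acts with TCF/LEF factors on target genes, and with Ror or Ryk receptors they act on cell polarity and movement. R-spondins prolong the life of Frizzled receptors at the cell surface, and Sfrp proteins and Wif1 bind Wnts outside the cell. Dickkopfs other than the divergent Dkk3 bind the LRP co-receptors, and Notum removes the lipid from Wnts. Axin2, Nkd1 and Nkd2 are inhibitors inside the cell that the pathway itself induces. In the mammary gland stromal and epithelial Wnts take part in ductal branching, and Wnt1 is known as an integration site of mouse mammary tumour virus.

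Of the 48 genes, 34 had enough counts to be tested, out of 15230 tested genes in all. A gene could pass this filter through 1 group alone, so counts over the 34 describe the tested genes and not the whole family. No count was recorded in any of the 21 libraries for Dkk1, Dkk4, Sfrp5, Wnt3a and Wnt7a, which allows up to 0.0441 to 0.0865 CPM per library (3 counts, counting error only). The other 9 untested genes had few counts over all libraries: Wnt3 had 67, Rspo1 had 50, Fzd10 had 26, Wnt8a had 11, Rspo3 had 8, Rspo4 had 7, Wnt8b and Wnt9b had 4 each and Wif1 had 3. Fzd10, Rspo1, Rspo3, Rspo4, Wif1, Wnt3, Wnt8a, Wnt8b and Wnt9b therefore stayed at a group mean of at most 0.192 CPM, the value of Wnt3.

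Between genes, levels are compared in TPM, a scale relative to all transcripts that takes their length into account, and without a test. Sfrp2 was the most abundant of the 48 genes in NF vehicle, at 279 TPM (range 204 to 386, n = 3). Fzd2, Fzd1, Lrp6 and Lrp5 followed there, at means of 37.4, 35.6, 33.7 and 30.6 TPM, and their ranges overlapped in part. In CAF control Sfrp2 (150 TPM, 96.6 to 248) and Dkk2 (141 TPM, 80.0 to 199.9) were highest with overlapping ranges, ahead of Fzd2 at 101 TPM and Dkk3 at 70.1 TPM.

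The leading ligand differed by group. In NF vehicle Wnt4 (7.93 TPM, 4.43 to 11.1) and Wnt10a (7.88 TPM, 4.97 to 9.81) led, and their ranges overlapped. In NF TGFb1 Wnt11 (13.9 TPM, 11.9 to 16.8) and Wnt5a (13.7 TPM, 13.2 to 14.6) led. In NF siHsp90aa1 Wnt10a, Wnt5a, Wnt4 and Wnt11 lay close together at 6.48, 5.70, 4.79 and 4.57 TPM. In the 3 CAF groups Wnt5a was the highest ligand in each, at 32.7, 35.5 and 39.3 TPM, and Wnt9a was next at 5.61, 6.94 and 8.33 TPM.

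**Figure D1:**
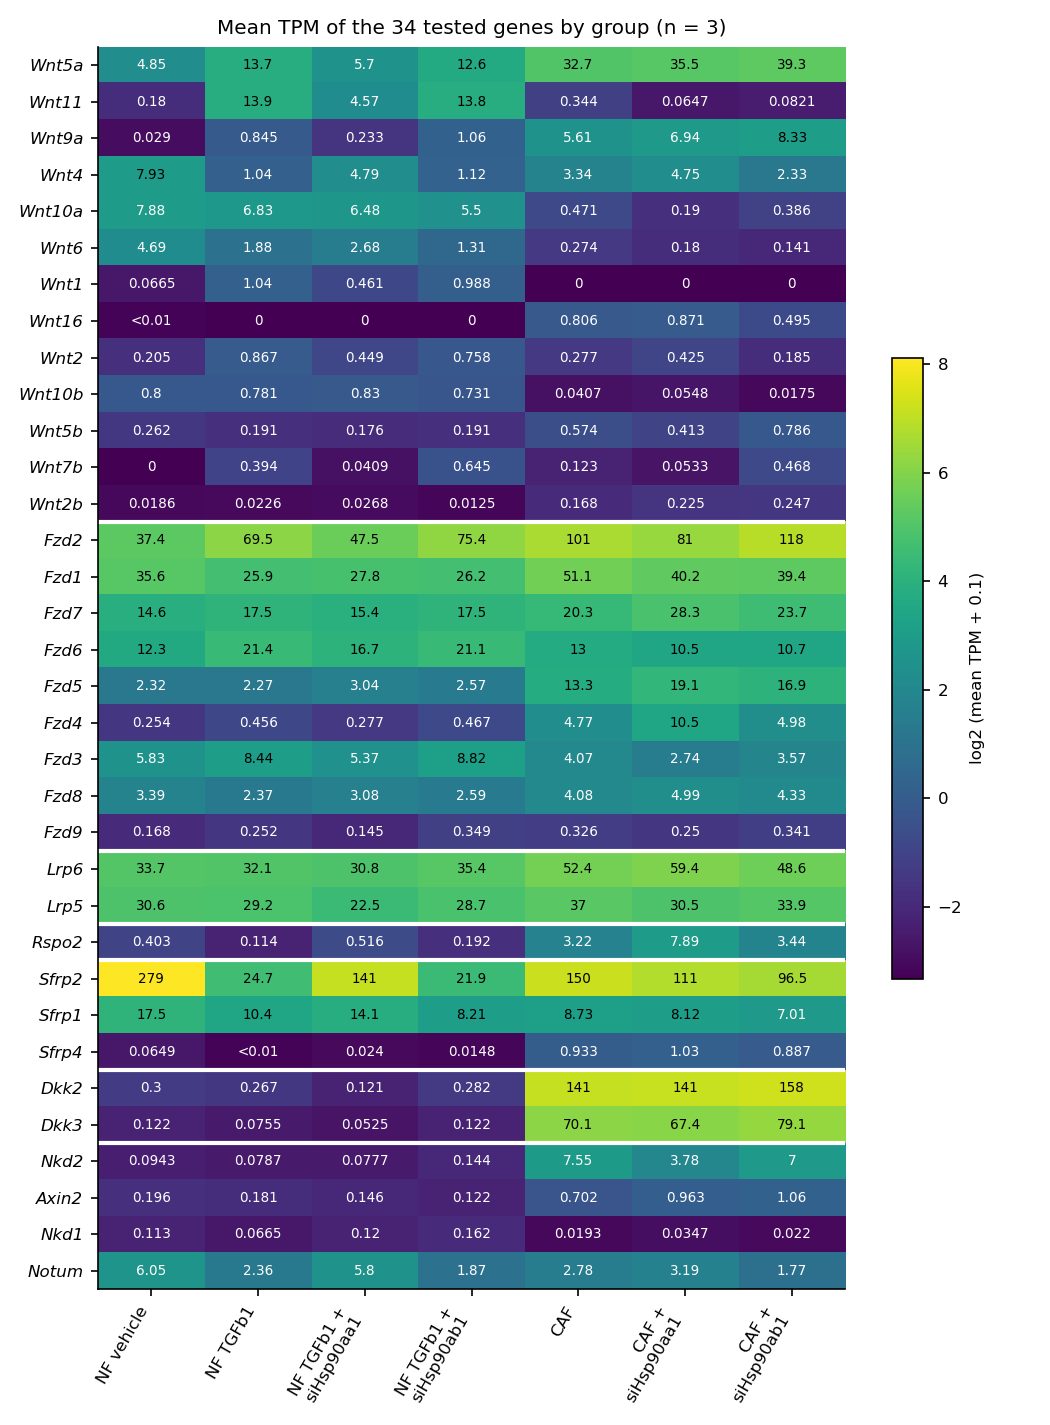
Mean TPM of the 34 tested genes (rows, grouped by role) in the 7 groups (columns, n = 3 libraries each), coloured on a log2 scale of the mean plus 0.1. Sfrp2 fills the brightest cell in NF vehicle at 279 TPM, and Dkk2 and Dkk3 stand at 141 and 70.1 TPM in CAF control against 0.300 and 0.122 TPM in NF vehicle.

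The first comparison asks how the tumour-derived line differs from the normal line with control siRNA and vehicle. Dkk2 and Dkk3 were below 1 CPM in NF and among the highest genes of the family in CAF, Wnt9a and Wnt5a were higher in CAF, and Wnt10a, Wnt6, Wnt10b and Wnt1 were lower. By edgeR's quasi-likelihood test with Benjamini-Hochberg adjustment over all 15230 genes, 16 of the 34 tested genes were higher in CAF and 10 were lower (76.5%). Of all genes tested 61.6% passed in this comparison, so a call by itself is common. With the replicate number as a block 18 of the 34 were higher and 10 lower, and 10098 of all genes passed in place of 9378. The median absolute log2 fold change was 2.15 over the 34 and 0.52 over all genes, values that include genes such as Wnt7b, Wnt16 and Wnt1, which reached the filter through groups where they are high. The median signed log2 fold change of the 34 was 0.79 against -0.0049 over all genes.

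Among the ligands 6 of 13 tested were higher in CAF and 5 were lower, beside the 61.6% of all genes that passed. Wnt5a, which often acts without beta-catenin, measured 12, 8.71 and 11.1 CPM in NF vehicle replicates 1 to 3 and 94.0, 80.5 and 72.2 in CAF control. Every CAF library was above every NF library, a difference of 2.96 on the log2 scale (SE 0.15, adjusted p = 1.03e-11). Wnt9a, a ligand known from joint development, measured 0.0331, 0.0449 and 0.0763 CPM in NF and 10.2, 7.44 and 11.3 in CAF. It was close to undetected in all 3 NF libraries, and the log2 difference was 7.50 (SE 0.36, adjusted p = 6.00e-12).

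Wnt10a, a beta-catenin type ligand, measured 7.18, 11.5 and 12.1 CPM in NF and 0.882, 0.432 and 0.458 in CAF, with a log2 difference of -4.06 (SE 0.39, adjusted p = 6.90e-08). The groups did not overlap. Wnt6 fell with it, from a mean of 4.31 CPM to 0.284 (log2 difference -3.85, SE 0.41). The 2 genes are neighbours on GRCm38 chromosome 1, with Wnt6 at chr1:74771892-74785322 and Wnt10a at chr1:74791516-74804179 on the same strand and 6194 bases between them. Another neighbouring pair, Wnt1 and Wnt10b on chromosome 15 with 11707 bases between them, was also lower in CAF. Wnt10b had means of 0.921 CPM in NF and 0.0318 in CAF, and Wnt1 had 14 counts over the 3 NF libraries and 0 over the 3 CAF libraries. With a floor of 3 counts over the CAF group and the 14 NF counts taken as exact, Wnt1 was at least 4.6-fold higher in NF. Wnt9a also has a neighbour in the family, Wnt3a at a distance of 16176 bases, which had 0 counts in every library of NF and CAF alike.

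Wnt4, which promotes side-branching of the mammary ducts, measured 11.2, 18.9 and 24.0 CPM in NF and 4.57, 4.67 and 12.8 in CAF. CAF replicate 3 lay within the NF range, and the log2 difference was -1.29 (SE 0.47, adjusted p = 0.0248). That call was lost without NF vehicle replicate 3 (adjusted p = 0.0903), CAF control replicate 1 (0.0947) or CAF control replicate 2 (0.0921). Of the low ligands, Wnt7b had 36 counts over the CAF libraries and 0 over NF vehicle, at least 12.2-fold higher if the 36 counts are taken as exact. Wnt16 had 66 against 2, a ratio of 33.5 (95% counting interval 8.91 to 282). Wnt2b and Wnt5b were also higher in CAF, from means of 0.0348 to 0.290 CPM and from 0.315 to 0.684, and the Wnt5b call was lost without NF vehicle replicate 1 (adjusted p = 0.0642) or CAF control replicate 1 (0.129). Wnt11 and Wnt2 did not pass, at means of 0.134 and 0.282 CPM and of 0.243 and 0.315, although Wnt11 did by DESeq2 (1.09, adjusted p = 0.0381).

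**Figure D2:**
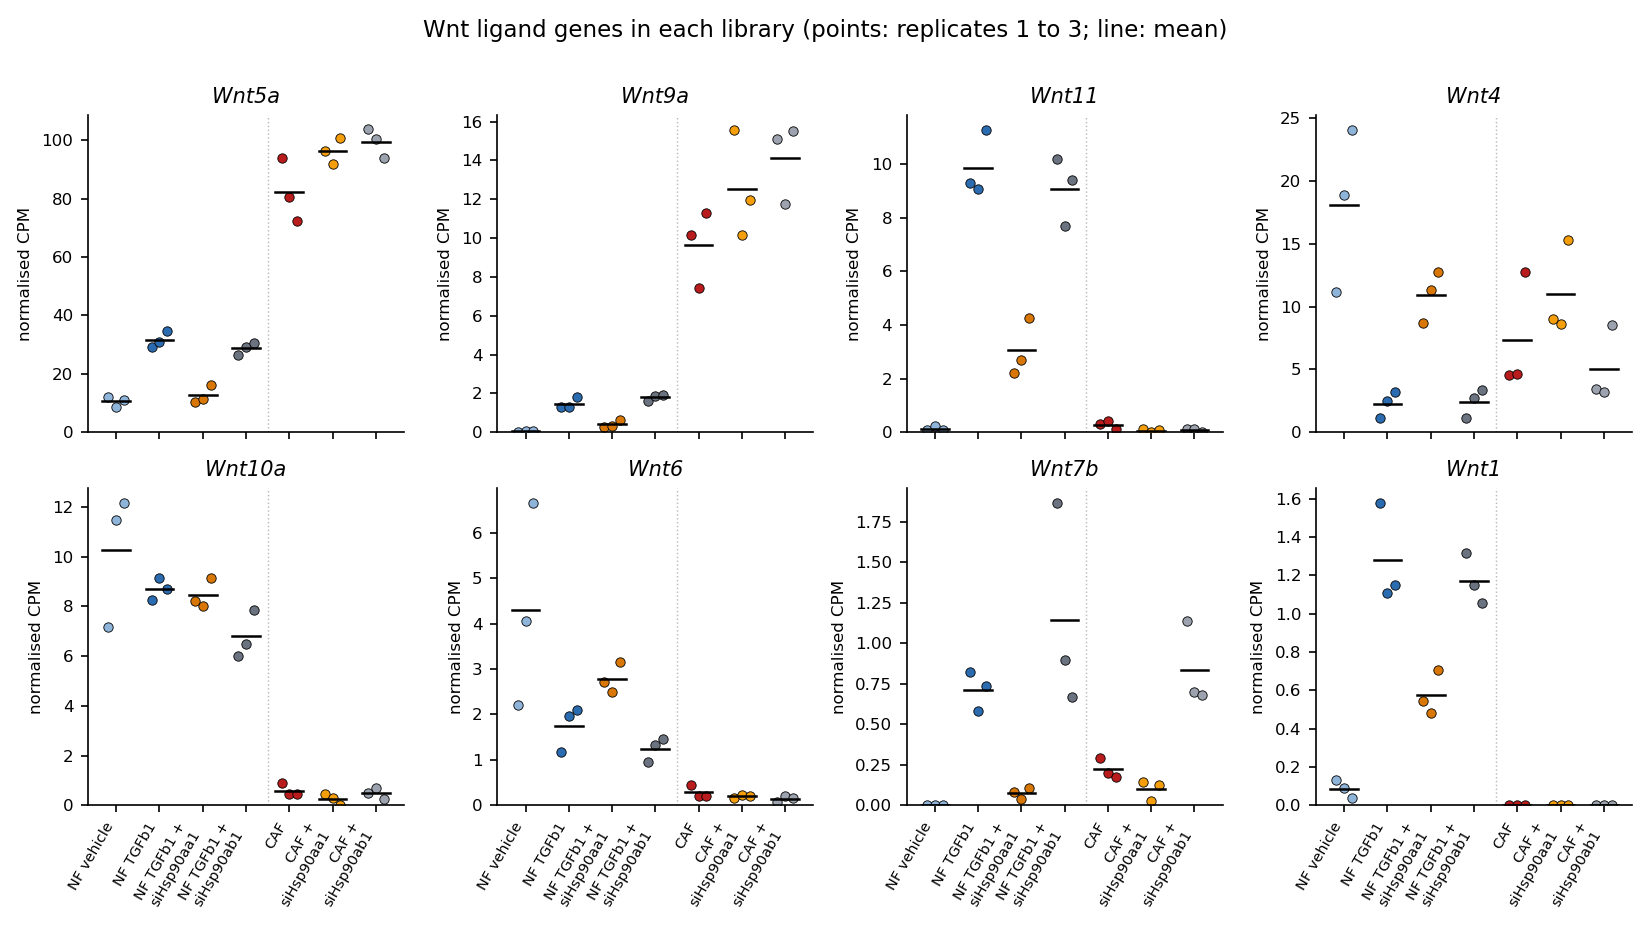
Normalised CPM (linear y axis, own scale for each gene) of 8 Wnt ligand genes in each of the 21 libraries; points are replicates 1 to 3 of a group and the line is the mean. Wnt5a lies at 72.2 CPM or above in every CAF library, Wnt11 is at 7.68 CPM or above only in NF TGFb1 and NF siHsp90ab1, and Wnt1 is at 0 in all CAF libraries.

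Among the receptors 3 of 9 tested Frizzleds were higher in CAF and 1 was lower, in a comparison where 61.6% of all genes passed. Fzd4, a receptor known from blood vessel growth, measured 0.546, 0.382 and 0.610 CPM in NF and 6.94, 9.92 and 10.5 in CAF, a log2 difference of 4.13 (SE 0.38, adjusted p = 3.41e-08). Fzd5, a receptor for Wnt5a among others, measured 8.03, 7.32 and 9.13 CPM in NF and 55.5, 34 and 41.8 in CAF (log2 difference 2.42, SE 0.19, adjusted p = 4.41e-09). Neither gene overlapped between the lines. Fzd2, the Frizzled with the highest TPM in either line, measured 44.2, 82.4 and 94.9 CPM in NF and 199, 181 and 195 in CAF. All CAF libraries were higher, with a log2 difference of 1.38 (SE 0.19, adjusted p = 4.96e-06). Fzd3 was lower in CAF (means 13.4 and 8.84 CPM, log2 difference -0.60), and Fzd1, Fzd6, Fzd7, Fzd8 and Fzd9 did not pass, although Fzd7 (0.37, adjusted p = 0.0487) and Fzd9 (0.97, adjusted p = 0.0457) did with the replicate number as a block. Of the co-receptors Lrp6 was higher, from 139 to 212 CPM (log2 difference 0.61), and Lrp5 did not pass, at 87.6 and 99.9 CPM.

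Rspo2, the only R-spondin tested, measured 0.480, 0.606 and 1.07 CPM in NF and 3.39, 4.09 and 9.13 in CAF. It was higher in every CAF library, with a log2 difference of 2.95 (SE 0.58, adjusted p = 0.000253).

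The 2 tested Dickkopfs had the largest log2 differences of the 34 genes. Dkk2, an LRP-binding inhibitor (chr3:132085292-132180304), measured 0.364, 0.809 and 0.629 CPM in NF and 388, 270.0 and 155 in CAF (log2 difference 8.85, SE 0.49, adjusted p = 3.59e-11). Dkk3, a divergent member of the family (chr7:112116017-112159057), measured 0.165, 0.270 and 0.229 CPM in NF and 158, 106 and 102 in CAF (log2 difference 9.12, SE 0.32, adjusted p = 1.10e-13). Both were below 1 CPM in all NF libraries and above 100 CPM in all CAF control libraries.

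The Wnt-binding antagonists went the other way in part. Sfrp1 measured 39.3, 36.7 and 49.9 CPM in NF and 27.7, 16.7 and 15.6 in CAF, without overlap (log2 difference -1.06, SE 0.25, adjusted p = 0.00109). Sfrp2 measured 215, 223 and 361 CPM in NF and 96.8, 94.6 and 229 in CAF, where replicate 3 lay within the NF range (log2 difference -0.93, SE 0.34, adjusted p = 0.0259). The Sfrp2 call was lost without NF vehicle replicate 3 (adjusted p = 0.1251), CAF control replicate 1 (0.101) or CAF control replicate 2 (0.105), and in a fit of these 2 groups alone (0.059). Sfrp4 was low in both lines and higher in CAF, at means of 0.0594 and 0.809 CPM.

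Of the feedback genes, Nkd2 measured 0.0827, 0.180 and 0.133 CPM in NF and 24.0, 13.6 and 4.55 in CAF (log2 difference 6.75, SE 0.78, adjusted p = 6.05e-07). Its CAF libraries were all higher but spread widely, with replicate 3 lowest. Axin2, the usual readout of beta-catenin signalling, rose from a mean of 0.399 to 1.45 CPM (log2 difference 1.87, SE 0.35, adjusted p = 0.000138), and Nkd1 was lower, at 0.273 and 0.0414 CPM. Target genes outside the family went both ways and are given below. Notum measured 5.53, 8.09 and 6.25 CPM in NF and 0.940, 2.08 and 4.55 in CAF. All CAF libraries were lower (log2 difference -1.40, SE 0.52, adjusted p = 0.0259), but the call was lost without NF vehicle replicate 2 (adjusted p = 0.0702), CAF control replicate 1 (0.103) or CAF control replicate 2 (0.073).

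Markers of other cell types moved with this comparison. The 9 epithelial markers summed to 0.420 to 0.612 CPM in NF vehicle and 5.58 to 22.2 in CAF control, where Krt19 alone had a mean of 13.5 CPM and Cldn4 and Elf5 were at 0. The 6 endothelial markers summed to 0.305 to 0.596 and 3.56 to 6.44 CPM, led in CAF by Kdr at 4.28, with Tie1 at 0 in both. The fibroblast markers summed to 7785 to 10510.5 CPM in NF vehicle and 40086 to 48844 in CAF control. Collagen genes made up most of that sum, and Dcn went the other way, from a mean of 397 to 16.7 CPM. The mitochondrial share was higher in every NF vehicle library than in every CAF control library. The part of these markers and of the mitochondrial share in the result was not tested.

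**Figure D3:**
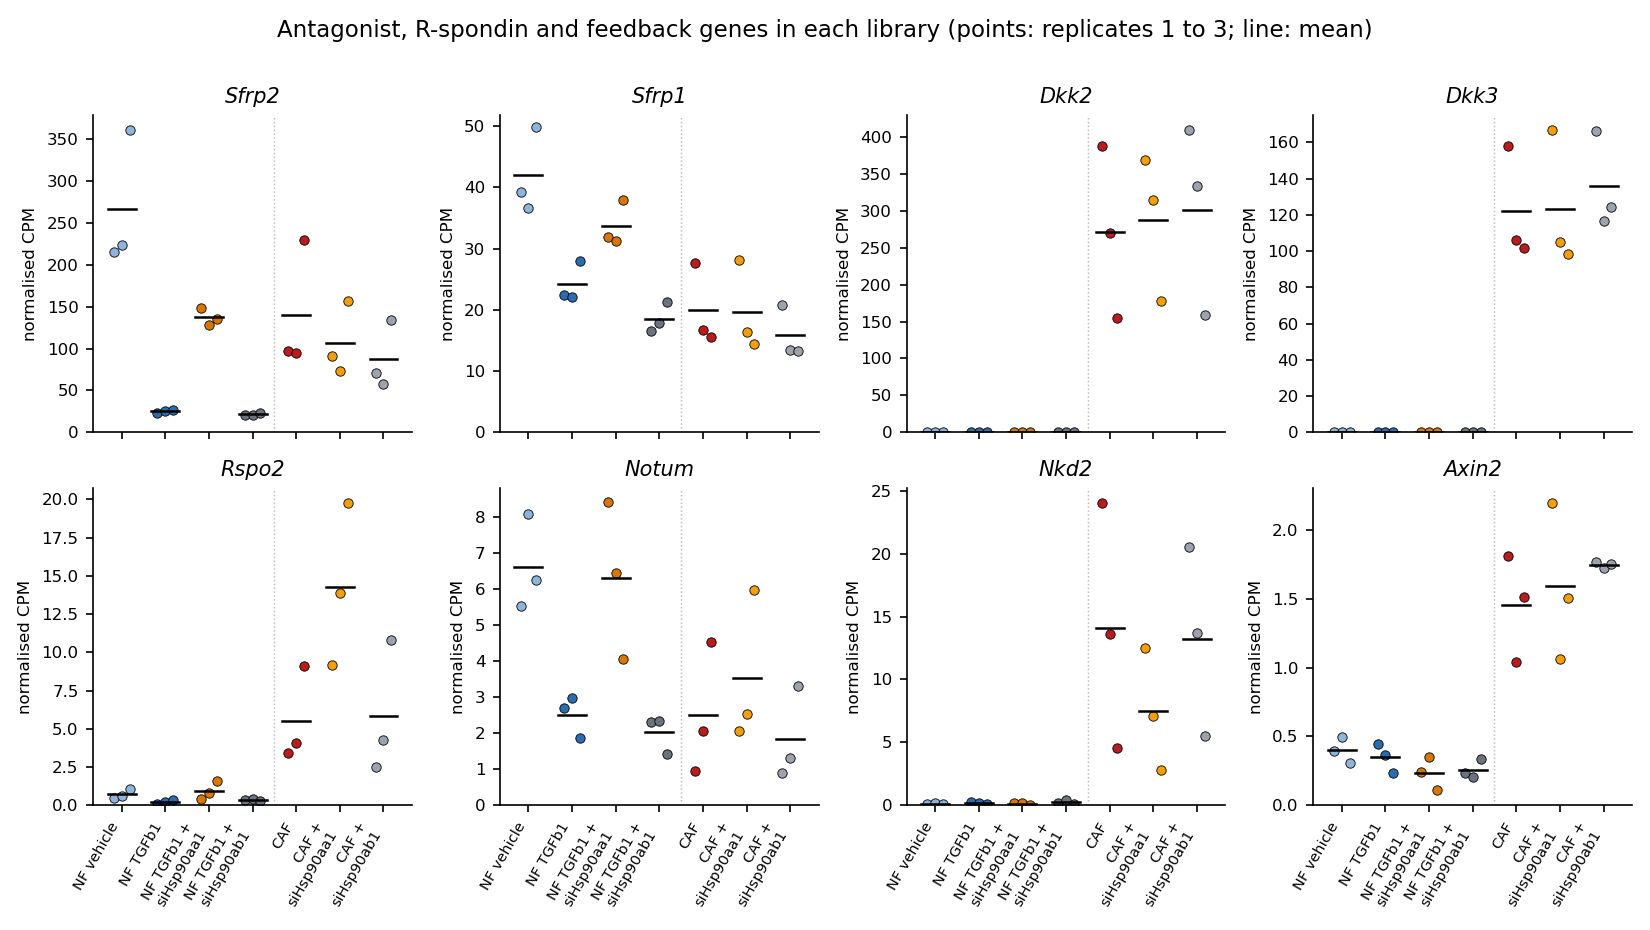
Normalised CPM (linear y axis, own scale for each gene) of 8 antagonist, R-spondin and feedback genes in each of the 21 libraries; points are replicates 1 to 3 of a group and the line is the mean. Dkk2 and Dkk3 are below 1 CPM in all 12 NF libraries, and Sfrp2 is at 26.7 CPM or below in NF TGFb1 and NF siHsp90ab1 and at 129 CPM or above in NF siHsp90aa1.

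The second comparison asks how NF respond to TGFb1, a cytokine that induces a myofibroblast state. Wnt11, Wnt9a, Wnt5a and Wnt7b rose, and Sfrp2, Wnt4, Wnt6 and Sfrp1 fell. Of the 34 tested genes 9 rose and 5 fell (41.2%), against 29% of all genes. With the replicate block 10 rose and 7 fell, and 5542 of all genes passed in place of 4410. This comparison shares its NF vehicle libraries with that of CAF and NF, and its NF TGFb1 libraries with the NF knockdowns.

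Among the ligands 6 of 13 rose and 2 fell, beside the 29% of all genes that passed. Wnt11, a ligand of cell movement pathways, measured 0.0827, 0.225 and 0.0953 CPM with vehicle and 9.28, 9.07 and 11.2 with TGFb1 (log2 difference 6.23, SE 0.49, adjusted p = 3.65e-08). Wnt9a rose from the values above to 1.31, 1.29 and 1.81 CPM (4.77, SE 0.40, adjusted p = 6.69e-08). Wnt5a rose to 29.2, 30.9 and 34.8 CPM (1.58, SE 0.14, adjusted p = 2.36e-07). For Wnt11, Wnt9a and Wnt5a no library with TGFb1 overlapped a vehicle library.

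Wnt7b had 97 counts over the 3 TGFb1 libraries and 0 over vehicle, at least 36.8-fold higher if the 97 counts are taken as exact, and stayed below 1 CPM. Wnt1 rose from a mean of 0.0868 to 1.28 CPM (log2 difference 3.82, SE 0.39) and Wnt2 from 0.243 to 1.01 CPM (2.07, SE 0.38). Wnt4 measured 1.11, 2.51 and 3.22 CPM with TGFb1, below all 3 vehicle libraries (-2.99, SE 0.52, adjusted p = 0.000265). Wnt6 fell from 4.31 to 1.74 CPM (-1.30, adjusted p = 0.00888), a call lost without NF vehicle replicate 3 (adjusted p = 0.0755) and in a fit of the 2 groups alone (0.0594). Wnt10a did not pass, with 8.26, 9.15 and 8.71 CPM, and neither did Wnt10b.

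Among the receptors Fzd2 rose to 109, 144 and 149 CPM, above every vehicle library (log2 difference 0.86, SE 0.19, adjusted p = 0.00189). Fzd6, a receptor of the planar polarity pathway, measured 27.1, 28.3 and 27.2 CPM with vehicle and 45.0, 44.4 and 49.8 with TGFb1. These values do not overlap (0.75, SE 0.26, adjusted p = 0.0392), but the Fzd6 call was lost whichever single library was left out, at an adjusted p of 0.0726 to 0.118. Fzd3 rose by 0.48 and Fzd8 fell by 0.55 on the log2 scale. Both calls were lost without NF vehicle replicate 3, at an adjusted p of 0.0503 for Fzd3 and 0.0525 for Fzd8, and that of Fzd8 also in a fit of the 2 groups alone (0.108). Lrp5 and Lrp6 did not pass, with log2 differences of -0.11 and -0.13.

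Sfrp2 had the largest fall among the genes that passed. It measured 22.4, 25.4 and 26.7 CPM with TGFb1 against 215, 223 and 361 with vehicle (log2 difference -3.42, SE 0.38, adjusted p = 2.12e-06). Sfrp1 measured 22.4, 22.2 and 28.0 CPM, below all vehicle libraries (-0.80, SE 0.24, adjusted p = 0.0203), and its call was lost without NF vehicle replicate 3 (adjusted p = 0.0814), NF TGFb1 replicate 1 (0.0632) or NF TGFb1 replicate 2 (0.0695). Without NF vehicle replicate 3 the count of lower genes was 2 in place of 5.

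Notum measured 2.71, 2.98 and 1.86 CPM with TGFb1 and Rspo2 0.0666, 0.182 and 0.340, in both cases below all vehicle libraries. Neither passed (log2 differences -1.39, adjusted p = 0.0518, and -1.90, adjusted p = 0.0657), and both did with the replicate number as a block (-1.36, adjusted p = 0.0409, and -1.90, adjusted p = 0.00114), as did Fzd4 (0.78, adjusted p = 0.0396). Notum also passed with RLE size factors (adjusted p = 0.0493), with no filter on low counts (0.0383) and with the filter of 1 CPM (0.0472). Both genes also passed in a fit of the 2 groups alone (0.00428 for Notum and 0.0429 for Rspo2) and by DESeq2 (0.0191 and 0.0219). Dkk2, Dkk3, Nkd1, Nkd2 and Axin2 did not pass. Dkk2 and Dkk3 stayed at or below 0.622 and 0.183 CPM in every TGFb1 library. The untested Rspo1 had 24 counts with TGFb1 and 1 with vehicle, a ratio of 27.3 (95% counting interval 4.46 to 1120). The epithelial markers summed to 1.10 to 1.84 CPM with TGFb1 against 0.420 to 0.612 with vehicle, and the fibroblast markers to 17170 to 23022 against 7785 to 10510.5, while Dcn and Pdgfra in that list had lower means with TGFb1, at 129 against 397 CPM and 263 against 764. Their part in the result was not tested.

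The stretches before the start sites are printed for 4 of the genes that changed most in NF: Sfrp2 and Wnt4, lower with TGFb1, and Wnt11 and Wnt9a, higher with it. They are RefSeq sequences on GRCm38.p6, all from the plus strand, at chr3:83766071-83766320 for Sfrp2, chr4:137277385-137277488 for Wnt4, chr7:98834862-98835111 for Wnt11 and chr11:59306680-59306927 for Wnt9a. Capitals mark words of 2 motifs searched on both strands, the TCF/LEF word CTTTG followed by any pair of A and T, and the SMAD box CAGACA.
Sfrp2: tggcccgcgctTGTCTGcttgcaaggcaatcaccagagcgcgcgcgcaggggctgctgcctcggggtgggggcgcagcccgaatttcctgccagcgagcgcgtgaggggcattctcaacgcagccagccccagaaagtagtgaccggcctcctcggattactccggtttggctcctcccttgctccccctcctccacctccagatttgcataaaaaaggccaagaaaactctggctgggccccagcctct
Wnt4: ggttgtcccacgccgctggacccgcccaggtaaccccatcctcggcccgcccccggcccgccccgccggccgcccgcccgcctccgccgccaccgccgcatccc
Wnt11: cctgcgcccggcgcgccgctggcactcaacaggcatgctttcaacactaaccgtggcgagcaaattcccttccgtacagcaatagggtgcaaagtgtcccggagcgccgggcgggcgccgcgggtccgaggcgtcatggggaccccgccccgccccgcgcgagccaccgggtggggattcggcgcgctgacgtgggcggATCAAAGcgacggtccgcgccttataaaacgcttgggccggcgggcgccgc
Wnt9a: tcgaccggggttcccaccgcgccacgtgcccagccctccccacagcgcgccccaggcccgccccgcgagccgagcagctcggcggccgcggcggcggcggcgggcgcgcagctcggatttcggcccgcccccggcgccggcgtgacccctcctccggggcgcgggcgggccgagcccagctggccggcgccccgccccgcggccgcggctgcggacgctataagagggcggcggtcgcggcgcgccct
Sfrp2 holds 1 SMAD box, read as TGTCTG on this strand, whose first base is 239 bases before the start. Wnt11 holds 1 TCF/LEF word, read as ATCAAAG, at 51 bases before the start, and a TATAAA word at 29. Wnt4, with 104 bases in the window, and Wnt9a, with 248, hold none of these words. In the 250 bases before the start of 32851 promoters, 14.8% held a TCF/LEF word, 17.1% a SMAD box and 12.4% TATAAA on either strand. A match is a run of letters and not a measured site. The table covered 31 of the 48 genes.

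The third comparison asks what the Hsp90aa1 knockdown did in NF with TGFb1. Sfrp2 and Wnt4 rose, and Wnt5a, Wnt9a, Wnt11 and Wnt7b fell. Of the 34 tested genes 4 rose and 8 fell (35.3%), against 28.3% of all genes. With the replicate block 6 rose and 10 fell, and 5681 of all genes passed in place of 4309. The control of this comparison is the NF TGFb1 group, the treated group of the TGFb1 comparison, so the values of the 2 comparisons are set side by side and their opposite signs are not counted as a result.

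Wnt5a measured 10.5, 11.3 and 16.1 CPM in NF siHsp90aa1 against 29.2, 30.9 and 34.8 in NF TGFb1, and the vehicle libraries had 8.71 to 12. All knockdown libraries were below all NF TGFb1 libraries (log2 difference -1.33, SE 0.14, adjusted p = 7.81e-06). Wnt9a measured 0.262, 0.334 and 0.652 CPM against 1.29 to 1.81 in the control (-1.86, SE 0.29, adjusted p = 0.000166). Wnt11 measured 2.21, 2.69 and 4.27 CPM against 9.07 to 11.2 (-1.70, SE 0.36, adjusted p = 0.00206). Wnt9a and Wnt11 in the knockdown were below all control libraries and above all vehicle libraries.

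Wnt7b fell from a mean of 0.712 to 0.0754 CPM (log2 difference -3.25, SE 0.54, adjusted p = 0.000428). Wnt1 fell from 1.28 to 0.577 CPM (-1.15, adjusted p = 0.0188), a call lost without NF TGFb1 replicate 1 (adjusted p = 0.0806) or NF siHsp90aa1 replicate 1 (0.0682) or 2 (0.0751). Wnt4 rose to 8.65, 11.3 and 12.7 CPM from 1.11 to 3.22 (2.26, SE 0.51, adjusted p = 0.00311), with no overlap. Wnt10a measured 8.23, 8.01 and 9.13 CPM and did not pass, and Wnt2, at a mean of 0.530 CPM against 1.01, did not pass (-0.95, adjusted p = 0.0515), but did with the replicate block (-0.997, adjusted p = 0.0267), with the filter of 1 CPM (0.0427) and by DESeq2 (0.048).

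Among the receptors and co-receptors the changes were under 2-fold where they passed. Fzd2 measured 83.9, 95.6 and 103 CPM, below all control libraries (log2 difference -0.51, SE 0.19, adjusted p = 0.0471), but its call was lost when any one of 5 of the 6 libraries was left out (adjusted p from 0.0577 to 0.163), all but NF TGFb1 replicate 1. Fzd3 fell (-0.62, adjusted p = 0.00222), Lrp5 fell (-0.35, adjusted p = 0.0149; 0.0631 without NF TGFb1 replicate 1) and Fzd8 rose (0.41, adjusted p = 0.0469). Fzd8 lost its call without NF TGFb1 replicate 1 (0.201) or 3 (0.0932), without NF siHsp90aa1 replicate 2 (0.162) or 3 (0.145), with no filter on low counts (0.104) and in a fit of the 2 groups alone (0.0828). Fzd5 (0.50, adjusted p = 0.0182) and Fzd4 (-0.80, adjusted p = 0.0376) did not pass (Fzd5 at an adjusted p of 0.0525) except in alternatives, the values given being those with the replicate block. Fzd5 also passed with the filter of 1 CPM (0.0477), in a fit of the 2 groups alone (0.0401) and by DESeq2 (0.0314). Fzd6 did not pass (adjusted p = 0.384), but did in a fit of the 2 groups alone (-0.32, adjusted p = 0.0206).

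Sfrp2 rose to 148, 129 and 136 CPM from 22.4 to 26.7, a log2 difference of 2.47 (SE 0.36, adjusted p = 0.000104). Every knockdown library was above every control library and below the lowest vehicle library, which had 215 CPM. Sfrp1 measured 31.8, 31.2 and 37.9 CPM, above the control libraries, and did not pass (log2 difference 0.48, adjusted p = 0.157), but did in a fit of the 2 groups alone (0.0165). Rspo2 measured 0.382, 0.797 and 1.58 CPM against 0.0666, 0.182 and 0.340 (2.22, SE 0.74, adjusted p = 0.0325), a rise that was lost without NF TGFb1 replicate 1 (0.131) or 2 (0.0872) or NF siHsp90aa1 replicate 2 (0.0548) or 3 (0.146). Notum measured 8.43, 6.45 and 4.05 CPM against 1.86 to 2.98, which did not overlap. It did not pass (1.32, adjusted p = 0.0638), but did with the replicate block (1.36, adjusted p = 0.0407), in a fit of the 2 groups alone (0.00813) and by DESeq2 (0.0286). Dkk2, Dkk3, Axin2, Nkd1 and Nkd2 did not pass, although Dkk2 did in a fit of the 2 groups alone (-1.09, adjusted p = 0.0266). The 6 endothelial markers summed to 0.509 to 0.916 CPM in NF TGFb1 and 1.03 to 1.47 in NF siHsp90aa1, and the 9 epithelial markers to 1.10 to 1.84 and 0.724 to 1.22. Their part in the result was not tested.

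**Figure D4:**
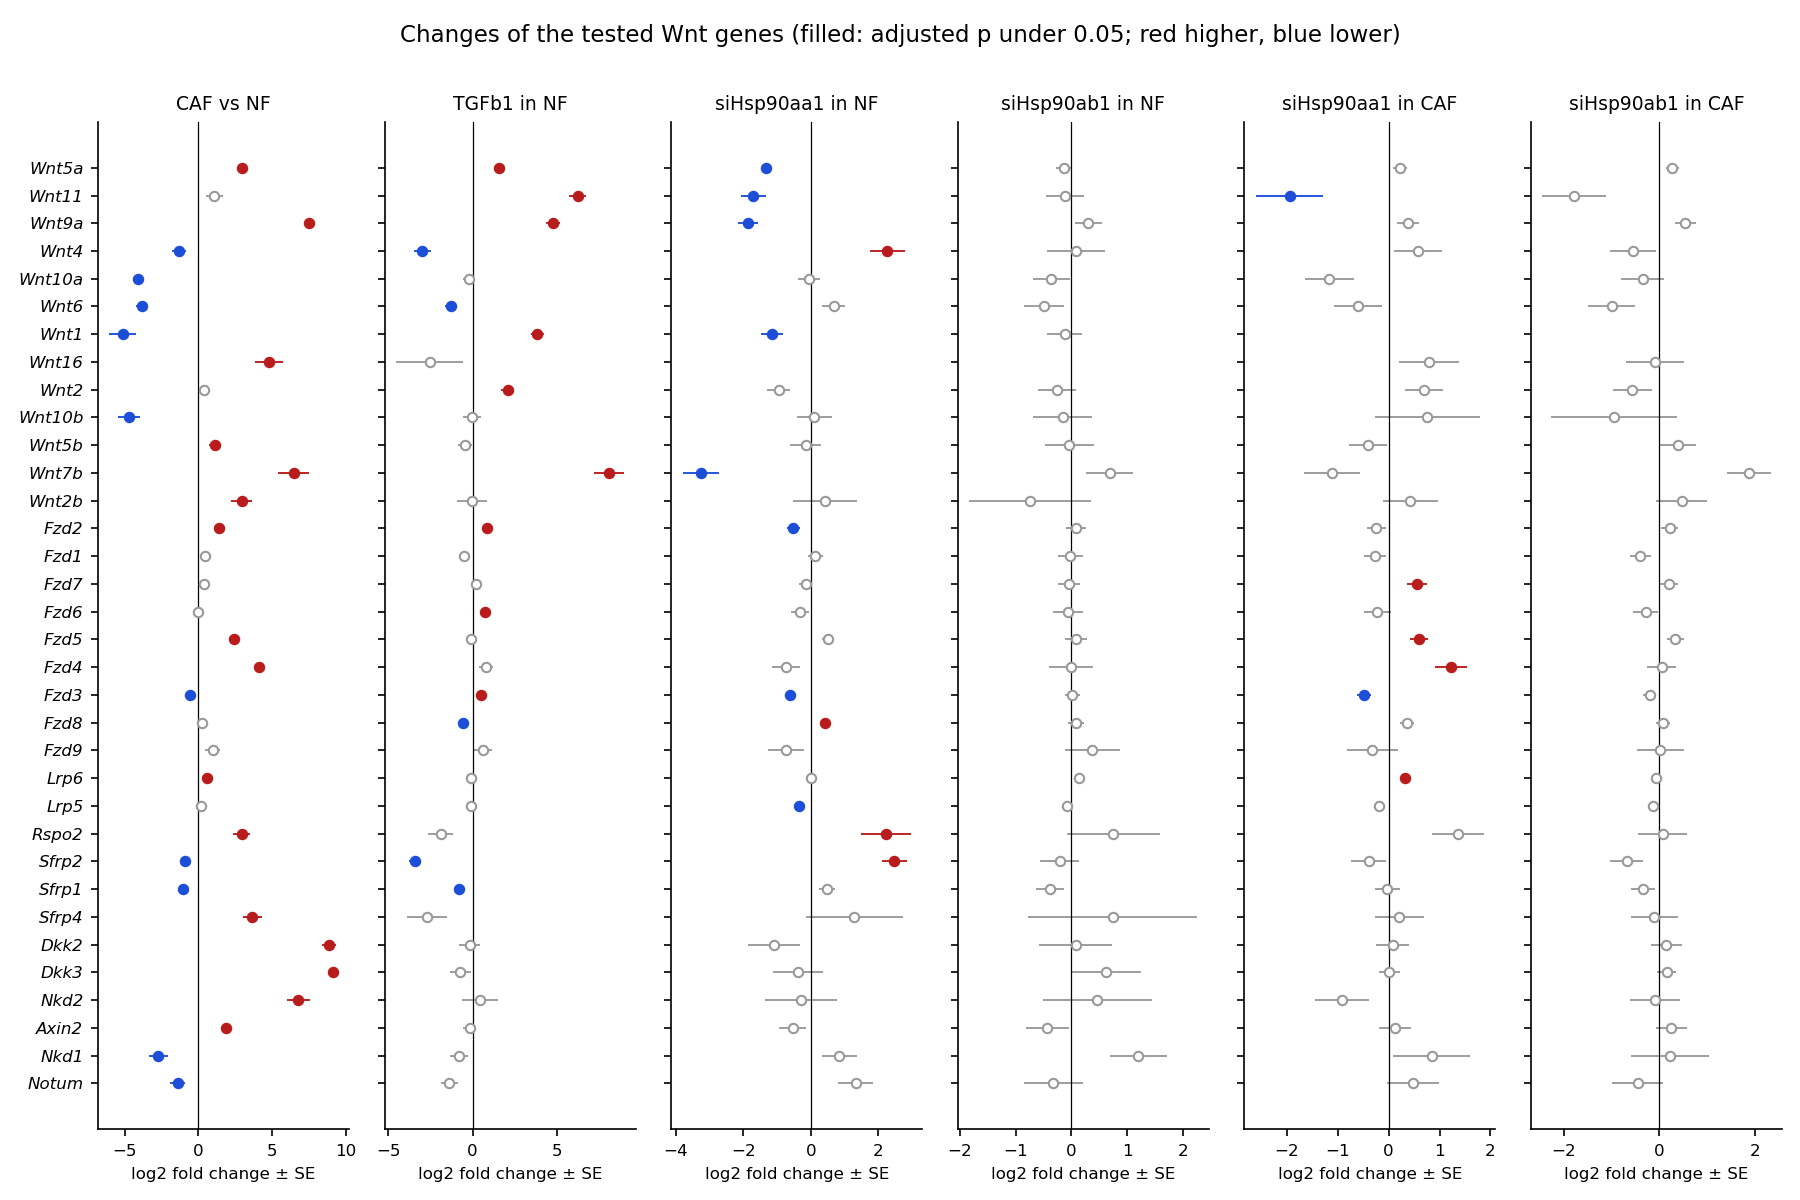
Log2 fold change with its standard error (x axis, own scale for each panel) of the 34 tested genes in 6 comparisons; filled points passed at an adjusted p under 0.05, red for higher and blue for lower. Points are absent where both groups had no counts, and fitted changes of Wnt1, Wnt7b and Wnt16 against a group at or near 0 counts are no bounds. No point is filled in the 2 siHsp90ab1 panels.

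The fourth comparison asks the same of the Hsp90aa1 knockdown in CAF with vehicle. Fzd4, Fzd5, Fzd7 and Lrp6 rose, and Fzd3 and Wnt11 fell. These 6 of 34 tested genes (17.6%) stand against 25.4% of all genes, a share below the background. With the replicate number as a block 7 rose and 3 fell, the added genes being Rspo2 (1.43, adjusted p = 0.000182), Wnt4 (0.67, adjusted p = 0.0396), Fzd8 (0.36, adjusted p = 0.0395) and Nkd2 (-0.87, adjusted p = 0.00509). The block also raised the count over all genes, from 3867 to 5198 of 15230, so the 25.4% is not its background. Fzd8 also passed in a fit of the 2 groups alone (adjusted p = 0.0417). Wnt10a, lower in each same-numbered pair, did not pass by edgeR (adjusted p = 0.0843) but did by DESeq2 (-1.20, adjusted p = 0.0147).

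Fzd4 measured 6.94, 9.92 and 10.5 CPM in CAF control and 13.7, 21.1 and 28.9 in CAF siHsp90aa1, with no overlap (log2 difference 1.22, SE 0.31, adjusted p = 0.00764; 0.0624 without CAF siHsp90aa1 replicate 3). Fzd5 measured 55.5, 34 and 41.8 CPM and 64.8, 64.1 and 70.5, again with no overlap (0.60, SE 0.18, adjusted p = 0.0195). The Fzd5 call was lost without CAF control replicate 2 (0.127) or 3 (0.0528) or CAF siHsp90aa1 replicate 3 (0.0766). Lrp6 rose from 217, 222 and 197 CPM to 281, 269 and 240.5, with no overlap (0.32, SE 0.08, adjusted p = 0.00643; 0.0519 in a fit of the 2 groups alone).

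Fzd7 rose from a mean of 48.2 to 70.8 CPM with overlapping libraries (log2 difference 0.55, adjusted p = 0.0441). The Fzd7 call was lost with RLE size factors (0.0519), with no filter on low counts (0.0602), in a fit of the 2 groups alone (0.157) and without CAF control replicate 2 (0.139) or 3 (0.179) or CAF siHsp90aa1 replicate 1 (0.246) or 2 (0.0949). Fzd3 fell from 8.84 to 6.27 CPM (-0.49, adjusted p = 0.0134; 0.067 without CAF control replicate 2 and 0.0628 without CAF siHsp90aa1 replicate 3). Wnt11 was near its detection limit in CAF, with 0.309, 0.404 and 0.134 CPM in the control and 0.112, 0 and 0.0753 in the knockdown. Its fall (-1.94, SE 0.66, adjusted p = 0.0390) was lost without CAF control replicate 1 (0.122) or 2 (0.1251) or CAF siHsp90aa1 replicate 2 (0.119) or 3 (0.0878).

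Wnt5a, Wnt9a and Sfrp2, which changed with the knockdown in NF, did not pass in CAF. Wnt5a measured 96.2, 91.8 and 101 CPM against 94.0, 80.5 and 72.2 in the control (log2 difference 0.23), and Wnt9a 15.5, 10.2 and 11.9 against 10.2, 7.44 and 11.3 (0.38). Sfrp2 measured 91.6, 73.0 and 157 CPM against 96.8, 94.6 and 229 (-0.39). For Wnt5a, Wnt9a and Sfrp2 the groups overlapped. In each same-numbered pair Wnt5a and Wnt9a were higher with the knockdown and Sfrp2 was lower. With the block none of these genes passed (adjusted p = 0.204, 0.0752 and 0.227). Rspo2 measured 9.16, 13.9 and 19.7 CPM against 3.39, 4.09 and 9.13, higher in each same-numbered pair. It did not pass (1.36, adjusted p = 0.0602), but did with the block and with no filter on low counts (0.0493). Nkd2, at 12.5, 7.10 and 2.79 CPM against 24.0, 13.6 and 4.55, was lower in each same-numbered pair and passed with the block. Dkk2, at 369, 314 and 178 CPM, and Dkk3, at 167, 105 and 98.5, did not pass. The endothelial markers summed to 3.56 to 6.44 CPM in CAF control and 6.83 to 9.36 in CAF siHsp90aa1, with Kdr at means of 4.28 and 7.81, and the epithelial markers to 5.58 to 22.2 and 10.1 to 15.5. Their part in the result was not tested.

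The difference between the knockdown effect in CAF and that in NF was tested directly as an interaction term, in which the line and the presence of TGFb1 cannot be told apart. For 4 of the 34 genes (11.8%) the effect differed, against 5.46% of all genes. The effect in CAF minus that in NF was 1.56 for Wnt5a (SE 0.20, adjusted p = 0.000385), 2.24 for Wnt9a (SE 0.36, adjusted p = 0.00178), -2.86 for Sfrp2 (SE 0.49, adjusted p = 0.00313) and 1.96 for Fzd4 (SE 0.52, adjusted p = 0.0326). The Fzd4 difference was lost in 10 of 18 alternatives, at an adjusted p of up to 0.0988. With the replicate block 6 differences were positive and 2 negative, with Wnt2 (1.67, adjusted p = 0.0354), Wnt7b (2.15, adjusted p = 0.0426) and Fzd7 (0.71, adjusted p = 0.0447) added on one side and Wnt4 (-1.66, adjusted p = 0.00602) on the other. Over all genes the block called 1871 of 15230 in place of 832.

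**Figure D5:**
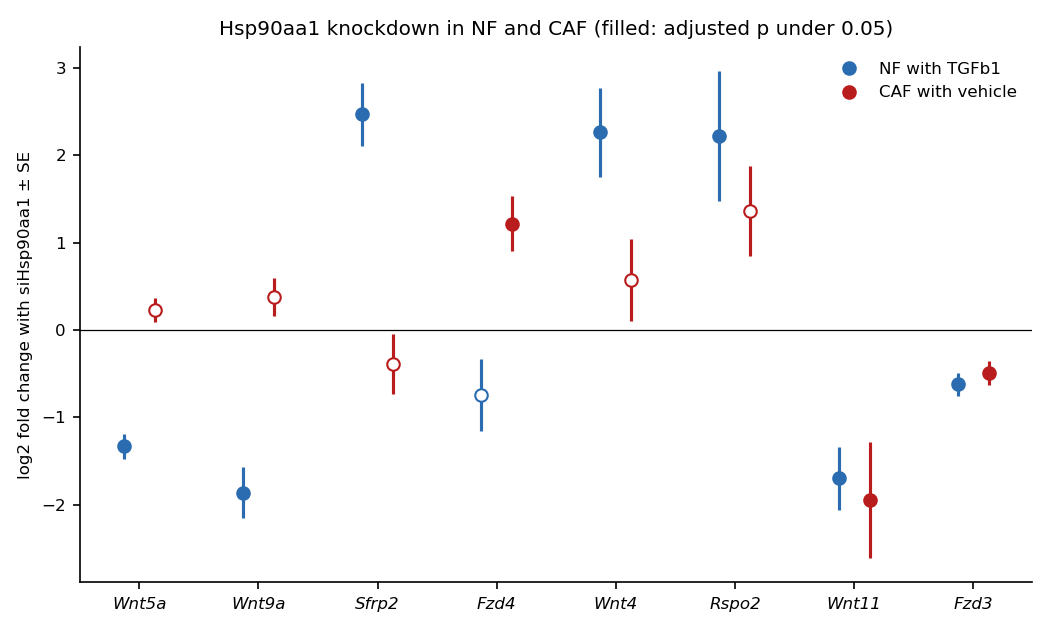
Log2 fold change with its standard error (y axis) of 8 genes with the Hsp90aa1 knockdown in NF with TGFb1 (blue) and in CAF with vehicle (red); filled points passed at an adjusted p under 0.05. Wnt5a, Wnt9a and Sfrp2 changed in NF by -1.33, -1.86 and 2.47, and in CAF their values were 0.23, 0.38 and -0.39.

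The Hsp90ab1 knockdown left no gene of the family past the threshold in either line. In NF 0 of 34 genes passed by edgeR, against 2.69% of all genes, with 1 at an unadjusted p under 0.05 (Nkd1) and 0 by DESeq2. Wnt11 at 10.2, 7.68 and 9.40 CPM, Sfrp2 at 21.1, 20.4 and 23.0, Wnt5a at 26.6, 29.2 and 30.5 and Wnt4 at 1.16, 2.76 and 3.33 all overlapped the range of the NF TGFb1 libraries. In CAF 0 of 34 passed by edgeR, against 0.9% of all genes, with 3 at an unadjusted p under 0.05 (Wnt7b, Wnt11 and Wnt9a). DESeq2 and the replicate block each called 1, Wnt7b. It measured 0.294, 0.202 and 0.172 CPM in CAF control and 1.13, 0.697 and 0.677 in CAF siHsp90ab1, without overlap (log2 difference 1.87, SE 0.46, adjusted p = 0.0764; 1.91, adjusted p = 0.00933 with the block). For the difference of the Hsp90ab1 effect between the lines 0 of 34 passed by edgeR and 0 by DESeq2, against 0.00657% of all genes, with 2 at an unadjusted p under 0.05 (Wnt11 and Wnt5a).

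The 2 knockdowns were then compared with each other, which uses neither control group. In NF 5 of 34 genes were higher with siHsp90aa1 than with siHsp90ab1 and 8 were lower (38.2%), against 34.1% of all genes. Sfrp2 (log2 difference 2.68, SE 0.37, adjusted p = 2.65e-05), Wnt4 (2.18, SE 0.51, adjusted p = 0.00286), Sfrp1, Wnt6 and Notum were the higher ones. Wnt5a (-1.19, SE 0.14, adjusted p = 6.67e-06), Wnt9a (-2.16, SE 0.28, adjusted p = 1.85e-05), Wnt7b, Fzd3, Wnt11, Fzd2, Wnt1 and Lrp5 were the lower ones. The replicate block added Rspo2 (1.39, adjusted p = 0.0047), Fzd5 (0.43, adjusted p = 0.033), Fzd9 (-1.12, adjusted p = 0.0413) and Fzd4 (-0.76, adjusted p = 0.0419). It gave 7 higher and 10 lower, and 6420 of all genes passed in place of 5201. The calls of Sfrp1 (0.0578), Wnt6 (0.0854), Notum (0.05005), Fzd2 (0.0524), Wnt1 (0.0888) and Lrp5 (0.158) were each lost without NF siHsp90ab1 replicate 1, at the adjusted p in parentheses. Without NF siHsp90aa1 replicate 1 those of Fzd2 (0.0846), Notum (0.0863), Wnt1 (0.0834) and Lrp5 (0.0867) were lost. Without NF siHsp90ab1 replicate 2 those of Fzd2 (0.0502), Wnt1 (0.0577) and Lrp5 (0.0724) were lost. Wnt1 (0.0979) and Lrp5 (0.0679) were also lost without NF siHsp90aa1 replicate 2, Wnt6 (0.0534) and Lrp5 (0.113) without NF siHsp90aa1 replicate 3, and Notum (0.0814) without NF siHsp90ab1 replicate 3.

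In CAF 3 of 34 genes were higher with siHsp90aa1 than with siHsp90ab1 and 1 was lower (11.8%), against 26.3% of all genes. Lrp6 (log2 difference 0.39, SE 0.08, adjusted p = 0.00149), Fzd4 (1.17, SE 0.31, adjusted p = 0.0101) and Wnt2 (1.26, SE 0.40, adjusted p = 0.0270) were higher. Wnt7b was lower (-2.99, SE 0.51, adjusted p = 0.000632), at 0.144, 0.0254 and 0.1255 CPM against 1.13, 0.697 and 0.677. The Fzd4 and Wnt2 calls were lost without CAF siHsp90aa1 replicate 3 (0.0774 and 0.170) or CAF siHsp90ab1 replicate 1 (0.0623 and 0.101), and that of Wnt2 also without CAF siHsp90ab1 replicate 3 (0.0846), with no filter on low counts (0.0506) and in a fit of the 2 groups alone (0.0671). With the replicate block 5 were higher and 4 lower, the added genes being Wnt4 (1.1995, adjusted p = 0.00133), Rspo2 (1.45, adjusted p = 0.000182), Fzd3 (-0.29, adjusted p = 0.0264), Nkd2 (-0.87, adjusted p = 0.00532) and Wnt5b (-0.83, adjusted p = 0.0333). Over all genes the block called 5412 of 15230 in place of 4006.

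The rest of the pathway was followed in 7 lists, some of which share genes. Of all genes tested 61.6% passed between CAF and NF, 29% with TGFb1, 28.3% with the Hsp90aa1 knockdown in NF and 25.4% with it in CAF, and the counts below stand beside those shares. Counts given with the block stand beside larger totals over all 15230 genes. In the same order these were 10098, 5542, 5681 and 5198, in place of 9378, 4410, 4309 and 3867. Of 5 Wnt secretion genes 4 were higher in CAF than in NF and 1 was lower, and 3 rose with TGFb1. The rises with TGFb1 included Porcn, the enzyme that adds the lipid to Wnts (log2 difference 0.96, SE 0.22, adjusted p = 0.00307), and Wls, the carrier that brings Wnts to the cell surface (0.35, SE 0.11, adjusted p = 0.0249). Of 13 tested genes for Ror, Ryk and polarity signalling 8 were higher in CAF and 3 lower. The higher ones included Ror2, a Wnt5a receptor (1.62, SE 0.15, adjusted p = 4.13e-08). With the block the lower ones were Ror1 (-0.83, adjusted p = 0.00492), Vangl1 (-0.69, adjusted p = 1.2e-08) and Celsr1 (-1.87, adjusted p = 0.0272). Cthrc1, a secreted factor linked to polarity signalling, had means of 46.5 CPM in CAF control and 0.0352 in NF vehicle. With TGFb1 4 of the 13 rose and 1 fell (5 and 2 with the block).

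Of 4 tested R-spondin receptor and turnover genes 2 were higher in CAF and 1 lower, and 3 rose with TGFb1. Lgr6, an R-spondin receptor, had means of 0.834 CPM in NF vehicle, 4.10 in NF TGFb1, 119 in CAF control and 248 in CAF siHsp90aa1 (1.06, SE 0.23, adjusted p = 0.00242 for the CAF knockdown). Of 6 other antagonists tested 4 were higher in CAF and 1 lower (2 with the block), and 2 rose and 2 fell with TGFb1. Frzb, the third secreted Frizzled-related protein, which carries no Sfrp symbol in the table, had means of 6.06 CPM in CAF control and 0.00749 in NF vehicle. Trabd2b, an enzyme that cleaves Wnts, fell with TGFb1 (-1.28, SE 0.27, adjusted p = 0.00166) and rose with the Hsp90aa1 knockdown in NF (1.34, SE 0.27, adjusted p = 0.00149), comparisons that share the NF TGFb1 libraries.

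Inside the cell, 4 of 10 destruction complex genes were higher in CAF and 4 lower, and 2 rose and 1 fell with TGFb1 (2 fell with the block). The Hsp90aa1 knockdown lowered 4 (5 with the block) and raised 1 of them in NF and lowered 2 in CAF, Axin1 (-0.54 in NF and -0.25 in CAF) and Amer1 (-0.59 and -0.73) in both. Of 14 nuclear genes 6 were higher in CAF (7 with the block) and 1 lower, a share below that of all genes. The lower one was Lef1, a DNA-binding partner of beta-catenin, with means of 28.4 CPM in NF vehicle, 68.3 in NF TGFb1 and 1.86 in CAF control (log2 difference -3.96 in CAF, SE 0.19, adjusted p = 5.12e-12, and 1.27 with TGFb1, SE 0.16, adjusted p = 9.05e-06). Ctnnb1, which encodes beta-catenin, fell with the Hsp90aa1 knockdown in NF (-0.37, SE 0.10, adjusted p = 0.00899) and in CAF (-0.63, SE 0.10, adjusted p = 0.000194).

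Of 10 tested target genes outside the family 3 were higher in CAF and 4 lower, 3 rose with TGFb1 (4 rose and 1 fell with the block), and 3 fell with the Hsp90aa1 knockdown in NF (5 with the block) and 1 in CAF (1 rose and 2 fell with the block). With the block, those that passed as lower in CAF than in NF were Sp5 (fitted log2 difference -8.87), Lef1 (-3.96), Myc (-1.37) and Znrf3 (-1.04). Those that passed as higher were Apcdd1 (4.30), Rnf43 (2.79) and Wisp1 (1.05). Wisp1 rose with TGFb1 (2.05, SE 0.14, adjusted p = 6.99e-09), and Ccnd1, the cyclin D1 gene, fell with the knockdown in CAF (-1.40, SE 0.30, adjusted p = 0.00249). The median log2 fold change of these 10 genes was -0.07 between CAF and NF, 0.24 with TGFb1, -0.41 with the Hsp90aa1 knockdown in NF and -0.04 in CAF, against -0.0049, -0.0282, 0.0055 and 0.0301 over all genes. With the Hsp90ab1 knockdown 0 genes of any of the 7 lists passed by edgeR in either line, and with the block Apc, a scaffold of the destruction complex, was lower in NF (-0.32, adjusted p = 0.0272).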

How the data were processed

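Gene-level expression was measured in 21 libraries, 3 in each of 7 groups, with samples grouped by their titles. The authors aligned reads with STAR and quantified them with Salmon on GRCm38, per the submitters' processing notes, with neither version nor strand setting stated in these sources. Deposited by the authors were expected counts per gene (10.9% of values not whole), which were rounded, moving no value by more than 0.5, and TPM, used only for levels between genes. Exon-overlapping antisense partners had at most 36 counts in any library.

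Counts were tested in R 4.3.3 with edgeR 4.0.16 (limma 3.58.1): TMM factors, a filter of 10 counts (15 in total) by group, 1 coefficient for each group over all 21 libraries, the quasi-likelihood F test with a prior count of 0.125, and Benjamini-Hochberg adjustment over all genes within each of 10 comparisons, passing under 0.05. The procedure was tested on simulated data. DESeq2 1.42.0, RLE factors, no or a stricter filter, fits of the compared groups alone, a replicate block and each library left out were alternatives.

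The labels give the replicate number as a batch, so same-numbered libraries are paired. The main tests leave this pairing out and the replicate block takes it in, so a gene that did not pass in the main test may pass with the block. Over 10374 genes 53 of 63 same-numbered pairs of libraries had deviations from their group means correlated above 0.1 (mean 0.31), against a mean of -0.151 between other numbers. The block is printed beside a result where it changed its call or its count.

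Genes named first passed in a main comparison and reached 5 CPM in a group, up to the 16 with the largest change; pathway genes are up to 3 of a list by smallest p. Genes outside these rules were chosen with their values known. Members and lists were chosen with earlier results of these data known. Coordinates are GENCODE vM21 (GRCm38), which held all 48 genes. Intervals and floors cover counting error only, and a fold given as at least a value takes the counts of the higher group as exact.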

Additional observations from a re-analysis of the deposited data

Results flagged for a closer look

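Of the 34 tested genes, 4 (11.8%) responded differently to the Hsp90aa1 knockdown in CAF and in NF by edgeR's interaction test, against 5.46% of all genes. Values are the log2 effect in CAF minus that in NF. The difference was 1.56 for Wnt5a, 2.24 for Wnt9a, -2.86 for Sfrp2 and 1.96 for Fzd4. That of Fzd4 was lost in 10 of 18 alternatives, and those of Wnt5a, Wnt9a and Sfrp2 were kept in all 18. NF carried TGFb1 and CAF did not, so the line and the cytokine cannot be told apart.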

How the results depend on the processing

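Of the 79 calls of Wnt family genes in the 10 comparisons, 50 were kept in every alternative run, 29 were lost in at least one and 0 changed direction. The replicate block gave 7 higher genes for the Hsp90aa1 knockdown in CAF, 1 for the Hsp90ab1 knockdown in CAF, 5 higher and 4 lower for Hsp90aa1 against Hsp90ab1 in CAF, and 6 positive and 2 negative differences of the Hsp90aa1 effect between lines. Beyond the calls named with it in the text, it changed no other call of a tested Wnt family gene. In fits of the compared groups alone 1 gene was lower for the Hsp90aa1 knockdown in CAF and 2 for the contrast of the knockdowns in CAF. DESeq2 gave 2 lower in that contrast and 1 higher for the Hsp90ab1 knockdown in CAF, and the filter of 1 CPM in 3 libraries gave 0 lower in that contrast, since it removes Wnt7b.

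Leaving out each library gave 2 to 4 higher and 0 to 3 lower genes for the Hsp90aa1 knockdown in CAF, 2 to 4 higher for it in NF, 1 to 5 higher and 1 to 2 lower for the contrast of the knockdowns in CAF, 2 to 5 higher and 5 to 9 lower for that contrast in NF, and 2 to 6 lower with TGFb1. Over all genes the block and DESeq2 gave 902 and 709 calls in place of 409 for the Hsp90ab1 knockdown in NF, 360 and 322 in place of 137 in CAF (5 in a fit of the 2 groups alone), 1871 and 1341 in place of 832 for the Hsp90aa1 difference between lines, and 3 and 18 in place of 1 for the Hsp90ab1 difference. With 3 libraries a group, genes of few counts such as Wnt7b, Wnt1 and Wnt11 in CAF rest on values near the floor of 3 counts.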
